A study of Homo sapiens with 16 samples.

Results

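The SLC25 genes encode the mitochondrial carriers, membrane proteins that move nucleotides, phosphate, amino acids, carboxylates, cofactors and metal ions across the inner membrane of the mitochondrion. Members were the genes named SLC25A followed by a number on a human whole genome array, and they came to 31 of the 27719 named genes on it. They were covered by 48 probes, with 20 genes on 1 probe and 11 on several, and for the latter the probe with the highest mean log2 signal over all arrays stood for the gene. SLC25A6, an ADP/ATP carrier, gave the reason to look at the family, so its own change was known when the family was chosen.

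Carriers of this family share a fold of repeated membrane-spanning helices and work as exchangers or co-transporters, each with its own substrate. The ADP/ATP carriers bring ADP into the matrix and release the ATP made there, and the phosphate carrier supplies the phosphate for that synthesis. Other members link the matrix to the cytosol for the citrate, malate and aspartate shuttles, for fatty acid oxidation, for iron use and for coenzyme supply. Intestinal epithelial cells draw on these pathways for absorption and for rapid renewal of the epithelium.

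The cells were Caco-2, a human colon carcinoma line used here undifferentiated, which is a limit of the model for the small intestine. All cultures were kept in medium with low serum and were lifted with trypsin before RNA was taken. The 4 conditions were medium alone (MED-CTL), PT-G (gliadin cut with pepsin and trypsin), PT (a digest of the same enzymes with no substrate) and the synthetic gliadin peptide p31-43 at 150 µg/ml, each for 6 h. Every condition had 4 arrays from 4 independent experiments, in 4 runs (arrays that share a day) with 1 array of each condition per run, on 5 slides. Per the paper, the enzymes in PT-G and PT were inactivated by heat once digestion was done. The comparisons address whether gliadin peptides change transcription beyond the digestion enzymes.

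Array medians ranged from 153 to 410 intensity units over a local background of 48 to 65, and 25766 to 31860 of the 41000 probes were well above background. Of 9 epithelial markers, 8 were above background on every array, with CDX1 on 1 array. Of 8 markers of other cell types, 6 were above background on every array: CD14, CD3E, PECAM1, COL1A1, COL3A1 and LUM, markers of myeloid cells, T cells, endothelium and fibroblasts. PTPRC and CDH5, which also mark leukocytes and endothelium, were above background on none. The summed signal of those 8 ranged from 2736 to 4068 under MED-CTL, 2609 to 3857 under p31-43, 2700 to 4176 under PT and 2736 to 3613 under PT-G. The epithelial sum ranged from 859900 to 1081000 over all arrays. The cultures were of the Caco-2 line alone, and the source of the signal of the other markers was not tested. In bulk RNA, fewer cells of a type and less RNA per cell cannot be told apart.

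Of the 31 carrier genes, 26 were above background on all 16 arrays, SLC25A30 on 15, SLC25A18 on 2 and SLC25A2 on 1. SLC25A31, the testis form of the ADP/ATP carrier, and SLC25A27, an uncoupling protein of brain, were not well above background on any array. All 31 were tested, none of their spots was saturated, and none was marked as an outlier. Levels are given as log2 intensity after normalization with the quantiles method, and are compared only between arrays for the same probe.

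In limma with a nominal p under 0.01, 4 of the 31 genes changed between PT and MED-CTL, beside 3.64% of the 40982 probes. SLC25A29, SLC25A6 and SLC25A23 were higher (1.8% of the probes were) and SLC25A28 was lower (1.84% were). With PT-G, 2 of the 31 changed, SLC25A29 and SLC25A23, both higher, beside 3.44% of the probes, 1.91% higher. With p31-43, 1 of the 31 changed, SLC25A6, which was higher, beside 0.388% of the probes, 0.144% higher. The family was chosen with the change of SLC25A6 known, so its calls with PT and p31-43 are not a result about the family. No other member was called with p31-43. Among probes above background on every array, which the carriers mostly are, 5.36% changed with PT and 5.09% with PT-G. After adjustment over all probes, SLC25A29 alone kept a p under 0.05, in the PT and the PT-G comparison.

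As a whole, the family moved little. Its median log2 fold change was 0.07 with PT, −0.0042 with PT-G and 0.05 with p31-43, and the medians over all probes were −0.01, −0.0059 and −0.0011. With PT, 19 of 31 values were above 0, and the counts were 14 for PT-G and 22 for p31-43. Of all 40982 probes, 19256 were above 0 with PT, 19619 with PT-G and 20335 with p31-43. The groups of 4 arrays did not overlap for 3 carriers with PT (5.08% of all probes), for 2 with PT-G (3.87%) and for none with p31-43 (1.39%). SLC25A6, the gene that led to the family, was among those with PT. The 3 comparisons share the MED-CTL arrays.

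**Figure D1:**
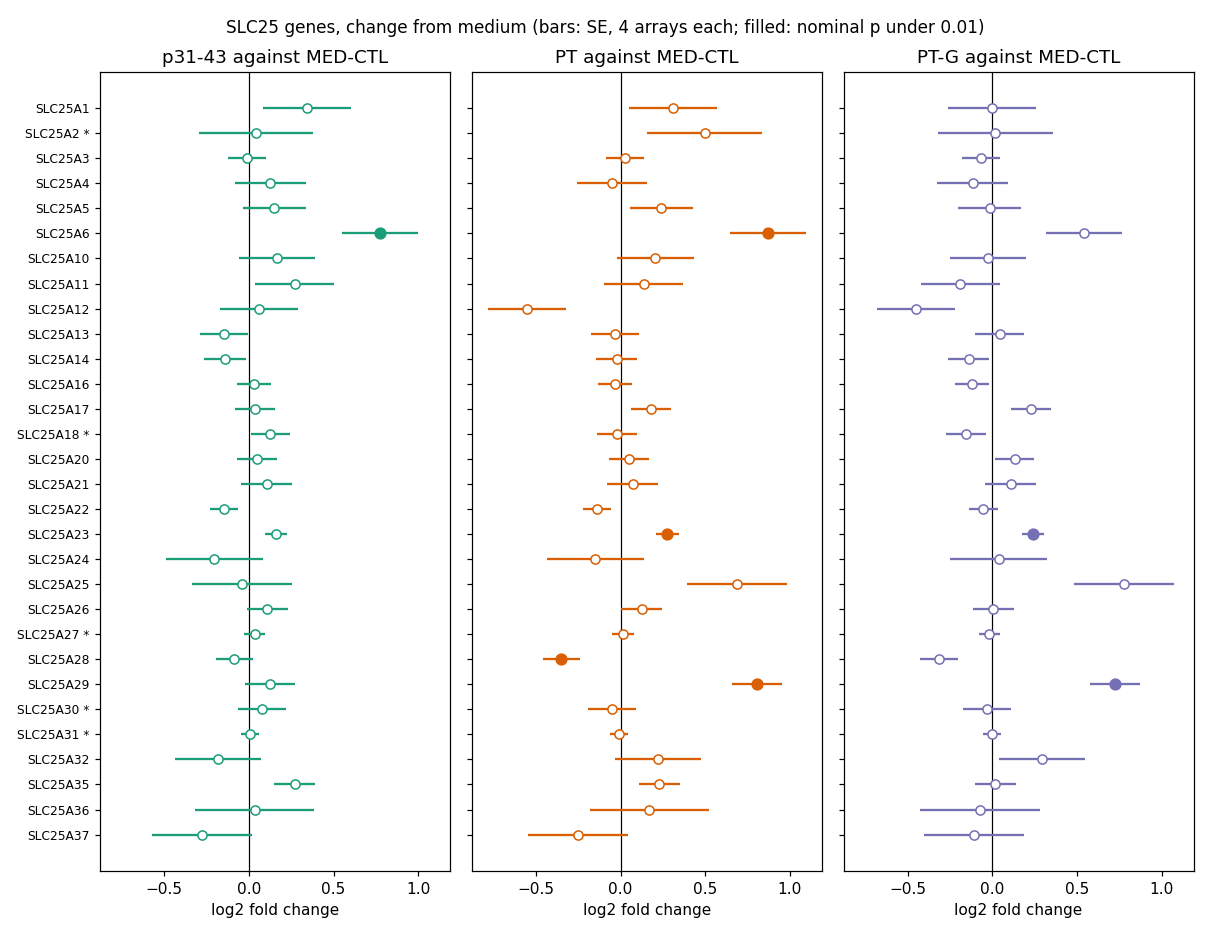
Log2 fold change against MED-CTL of the SLC25 genes reported here under p31-43, PT and PT-G. Points are limma estimates over 4 arrays per group, bars are SE, filled points have a nominal p under 0.01, and an asterisk marks the 5 genes not above background on all 16 arrays. SLC25A6 is filled under p31-43 and PT, and SLC25A29 and SLC25A23 are filled under PT and PT-G.

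The promoters of SLC25A6, SLC25A29 and SLC25A25 are shown because they differ in composition and in motif. These genes also differed in which stimuli gave their larger values, though SLC25A25 was not among the genes called above. A window of 300 bases around the transcript start was listed in RefSeq (GRCh38.p14) for 24 of the 31 genes. Capitals mark matches on either strand to the EGR motif (GCGGGGGCG or GCGTGGGCG) and to CCAAT in the first sequence, to CCAAT in the second, and to the cAMP response element (TGACGTCA) and CCAAT in the third. No match overlaps another in the windows shown. SLC25A6 lies at chrX:1392064-1392363 on the minus strand, SLC25A29 at chr14:100306395-100306694 on the minus strand, and the SLC25A25 window at chr9:128098257-128098556 on the plus strand. Of the 3 windows listed for SLC25A25 it was chosen because it alone holds the cAMP response element, and the others hold an ETS match or CCAAT matches.
SLC25A6: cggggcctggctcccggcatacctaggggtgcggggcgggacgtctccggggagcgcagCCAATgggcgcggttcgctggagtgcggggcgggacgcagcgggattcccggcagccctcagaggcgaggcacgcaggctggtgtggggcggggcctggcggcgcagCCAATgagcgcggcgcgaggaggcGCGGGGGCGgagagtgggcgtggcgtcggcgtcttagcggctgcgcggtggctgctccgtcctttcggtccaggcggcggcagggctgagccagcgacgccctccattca
SLC25A29: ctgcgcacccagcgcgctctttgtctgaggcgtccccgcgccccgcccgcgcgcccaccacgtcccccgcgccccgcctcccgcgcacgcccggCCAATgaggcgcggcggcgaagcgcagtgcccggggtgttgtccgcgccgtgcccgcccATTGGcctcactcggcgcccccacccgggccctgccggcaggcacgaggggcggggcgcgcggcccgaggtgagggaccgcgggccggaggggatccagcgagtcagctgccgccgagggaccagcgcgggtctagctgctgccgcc
SLC25A25: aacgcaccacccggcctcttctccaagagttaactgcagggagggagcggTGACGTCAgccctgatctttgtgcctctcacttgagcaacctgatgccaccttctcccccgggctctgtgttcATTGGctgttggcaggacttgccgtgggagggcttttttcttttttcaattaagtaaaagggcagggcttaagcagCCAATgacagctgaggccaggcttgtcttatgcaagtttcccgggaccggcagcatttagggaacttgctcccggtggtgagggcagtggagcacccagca

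The cAMP response element was in a window of 2.25% of 27195 genes and in those of 2 of the 24 carriers, SLC25A25 and SLC25A36. The EGR motif was in 6.98% of genes and in 3 carriers, SLC25A6, SLC25A21 and SLC25A22. The AP-1 motif (TGANTCA) was in 9.33% of genes and in 1 carrier, SLC25A22. The ETS motif (CCGGAAG) was in 12.2% of genes and in 8 carriers. CCAAT was in 39.7% of genes and in 15 carriers. Member windows had a median GC content of 66.2%, against 58.7% for all windows. A match is a run of letters and not a bound site, and a link between motif and response was not tested. SLC25A36, which also holds the cAMP response element, differed from MED-CTL by −0.07 with PT-G and 0.17 with PT. Of the other carriers with the EGR motif, SLC25A22 differed by −0.05 and −0.14 and SLC25A21 by 0.11 and 0.07. None of these was called.

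SLC25A6, the ADP/ATP carrier found in most tissues, had a higher mean under every stimulus than under MED-CTL, with different spread. On the MED-CTL arrays its log2 intensity was 14.37, 13.84, 14.17 and 14.99 in replicates 1 to 4. With PT it was 15.12, 15.30, 15.25 and 15.16, and with p31-43 15.14, 15.31, 14.83 and 15.19. With PT-G it was 15.16, 15.16, 14.29 and 14.91. The PT values lay close together and all above MED-CTL, while 1 p31-43 array and 2 PT-G arrays lay below the highest MED-CTL array. The SD was 0.08 on the PT arrays and 0.48 on the MED-CTL arrays (n = 4 each).

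The difference of SLC25A6 from MED-CTL was 0.87 with PT on the log2 scale (SE 0.22, limma, adjusted p = 0.111), a 1.83-fold level. With p31-43 it was 0.78 (SE 0.22, limma, adjusted p = 1.00), a 1.71-fold level. With PT-G it was 0.54 (SE 0.22, limma, adjusted p = 0.514) and did not pass. PT-G minus PT was −0.33, with a 95% interval from −0.81 to 0.15 (limma, adjusted p = 1.00). PT-G minus p31-43 was −0.24 (interval −0.72 to 0.25) and PT minus p31-43 was 0.09 (interval −0.39 to 0.58). These intervals do not show that the stimuli acted alike.

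Within runs, SLC25A6 differed from the MED-CTL array of the same run by 1.29, 0.93, 1.08 and 0.18 with PT in runs 1 to 4. With p31-43 the 4 differences were 1.30, 0.94, 0.66 and 0.21. With PT-G they were 1.33, 0.80, 0.11 and −0.08, so the gene was higher in runs 1 and 2 and near its control in runs 3 and 4. The mean of the late pair of runs minus that of the early pair was −1.04 for PT-G (SE 0.40, limma, adjusted p = 1.00). When limma also fitted the run, the PT difference reached an adjusted p of 0.025. In run 3, however, the PT and MED-CTL arrays were on different slides. Over all probes, their deviations from the group means correlated at −0.018, so that run did not pair them. The p31-43 and MED-CTL arrays of run 4 were also on different slides, and their deviations correlated at 0.708. The part of the slide was not tested.

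The PT call of SLC25A6 held in all 19 alternatives, between 0.70 and 1.08. The p31-43 call was lost without MED-CTL replicate 2 (0.61), MED-CTL replicate 3 (0.72), p31-43 replicate 2 (0.71) or p31-43 replicate 4 (0.75). It was also lost with the background-subtracted signal (0.67) and with only MED-CTL and p31-43 in the fit. The PT-G difference passed without PT-G replicate 3 (0.74, limma, adjusted p = 0.155) or without MED-CTL replicate 4 (0.75, limma, adjusted p = 0.107).

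**Figure D2:**
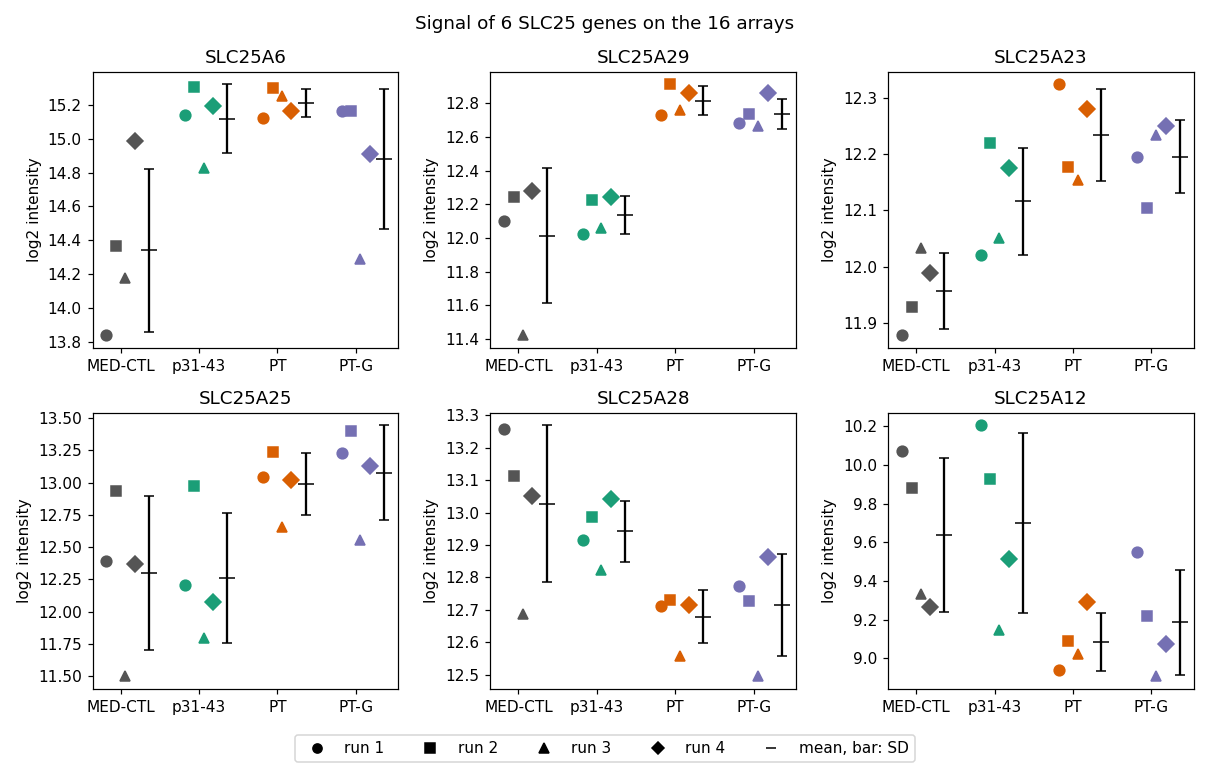
Log2 intensity of 6 SLC25 genes on the 16 arrays, by condition. Each point is 1 array, its shape gives the run, and the bar beside it is the mean and SD of 4 arrays. SLC25A29 lies between 12.67 and 12.91 on all PT and PT-G arrays and at most at 12.28 on the MED-CTL and p31-43 arrays.

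The other ADP/ATP carriers did not pass the test with any stimulus. SLC25A5, the form of dividing cells, had means of 16.30 under MED-CTL, 16.45 under p31-43, 16.54 under PT and 16.29 under PT-G (SD 0.35, 0.17, 0.10 and 0.38, n = 4 each). Its 4 probes differed from MED-CTL by 0.23 to 0.29 with PT, by −0.03 to 0.14 with PT-G and by 0.11 to 0.27 with p31-43. With PT the brightest probe was −0.09 and −0.11 in runs 1 and 2 and 0.76 and 0.41 in runs 3 and 4. SLC25A4, the form of heart and muscle, differed by −0.05 with PT, −0.12 with PT-G and 0.13 with p31-43 (SE 0.21 each). These 3 genes are close in sequence, and any cross-hybridisation between their probes was not tested.

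SLC25A23, SLC25A24 and SLC25A25 encode ATP-Mg/phosphate carriers, which are regulated by calcium and set the adenine nucleotide pool of the matrix, and SLC25A3 encodes the phosphate carrier. SLC25A23 was 11.93, 11.88, 12.03 and 11.99 on the MED-CTL arrays, and 12.32, 12.18, 12.15 and 12.28 with PT. With PT-G it was 12.20, 12.10, 12.23 and 12.25, and with p31-43 12.02, 12.22, 12.05 and 12.17. All PT and PT-G arrays lay above all MED-CTL arrays, and the p31-43 arrays overlapped all 3 of these groups.

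SLC25A23 rose by 0.28 with PT (SE 0.07, limma, adjusted p = 0.0804) and by 0.24 with PT-G (SE 0.07, limma, adjusted p = 0.146). With p31-43 it was 0.16 higher (limma, adjusted p = 1.00) and did not pass. All 12 differences within runs were above 0. Its pooled SD within groups was 0.078. Its other probes gave 0.10 and −0.07 with PT and 0.10 and −0.19 with PT-G, and neither passed. With the mean over its probes the difference was 0.10 with PT (limma, adjusted p = 0.856) and 0.049 with PT-G (limma, adjusted p = 1.00), and both calls were lost. Without MED-CTL replicate 2 the PT-G difference was 0.21 and did not pass (limma, adjusted p = 0.411). The PT and the PT-G call were also lost with the background-subtracted signal (0.25 and 0.22) and with the filter on dim probes, and the PT-G call with median scaling (0.32).

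SLC25A25 had a larger difference and a larger spread. On the MED-CTL arrays it was 12.94, 12.40, 11.50 and 12.37, with PT 13.05, 13.23, 12.66 and 13.02, and with PT-G 13.23, 13.40, 12.55 and 13.13. With p31-43 it was 12.21, 12.97, 11.79 and 12.07. Run 3 was the lowest array of every condition, and 1 MED-CTL array lay within the PT and the PT-G range.

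SLC25A25 differed from MED-CTL by 0.78 with PT-G (SE 0.30, limma, adjusted p = 0.424) and by 0.69 with PT (SE 0.30, limma, adjusted p = 0.493). With p31-43 it differed by −0.04. Neither digest passed in this fit, and PT-G passed with median scaling (0.86, limma, adjusted p = 0.367). Within runs the differences were 0.83, 0.46, 1.05 and 0.76 with PT-G and 0.65, 0.30, 1.16 and 0.65 with PT. With the run as a block both passed, at an adjusted p of 0.00482 for PT-G and 0.00899 for PT in limma (SE 0.13). With that block the difference from p31-43 was 0.81 for PT-G (limma, adjusted p = 0.00339) and 0.73 for PT (limma, adjusted p = 0.00746). The second probe gave 0.44 with PT-G and 0.60 with PT and did not pass (limma, adjusted p = 1.00 and adjusted p = 0.844). Without MED-CTL replicate 1 both digests passed with no block, at 0.99 for PT-G and 0.90 for PT (limma, adjusted p = 0.224 and adjusted p = 0.280). Without PT-G replicate 3 the PT-G difference was 0.95 and passed (limma, adjusted p = 0.251).

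SLC25A3 and SLC25A24 stayed near their controls. SLC25A3 differed by 0.02, −0.07 and −0.01 with PT, PT-G and p31-43 (SE 0.11 each). SLC25A24 differed by −0.15, 0.04 and −0.20 (SE 0.29 each). Neither gene passed the test in any comparison.

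**Figure D3:**
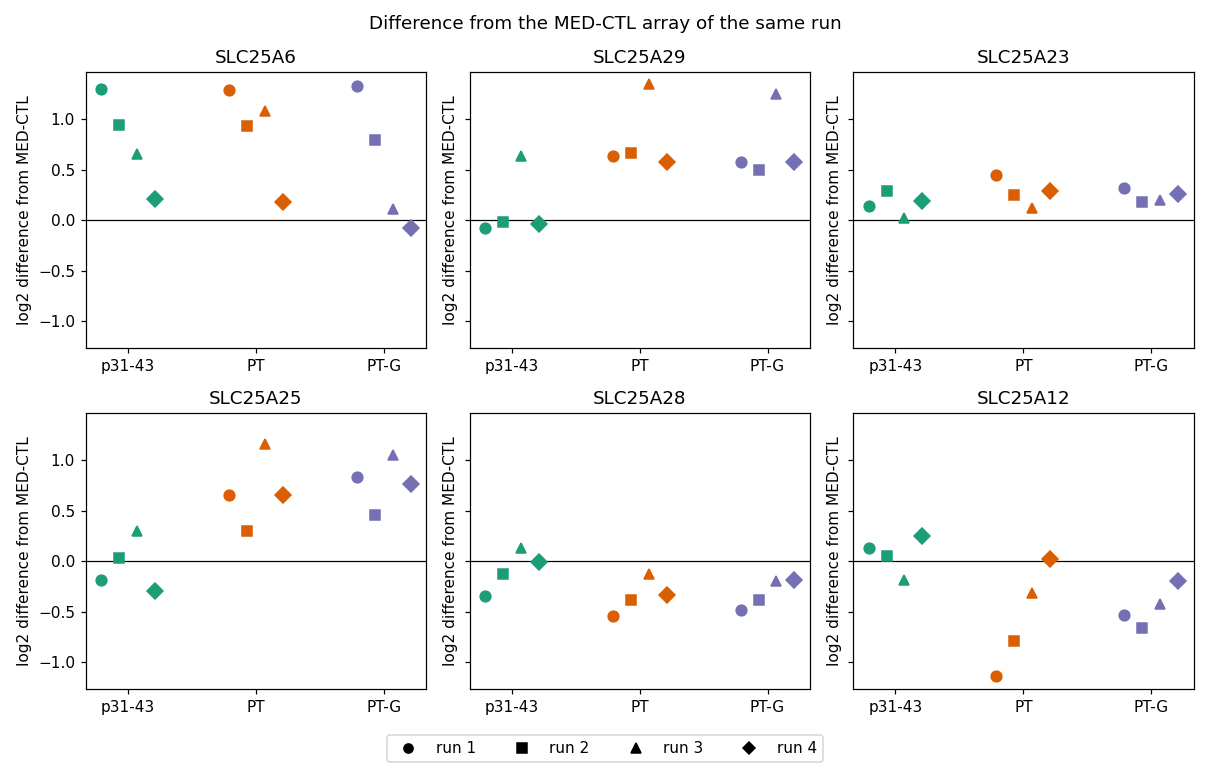
Difference on the log2 scale of each stimulated array from the MED-CTL array of the same run, for 6 SLC25 genes. Each point is 1 run, shown by its shape, and the line marks no difference. For SLC25A29, SLC25A23 and SLC25A25 all 4 runs lie above 0 with PT and with PT-G, and for SLC25A6 with PT-G runs 1 and 2 lie at 1.33 and 0.80 and runs 3 and 4 at 0.11 and −0.08.

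Of the 7 carriers of amino acids and carnitine, SLC25A29 changed. It encodes a carrier of basic amino acids such as arginine and lysine. Its log2 intensity was 12.24, 12.10, 11.42 and 12.28 on the MED-CTL arrays and 12.02, 12.22, 12.06 and 12.24 with p31-43. With PT it was 12.73, 12.91, 12.76 and 12.86, and with PT-G 12.68, 12.74, 12.67 and 12.86. Every PT and PT-G array lay above every MED-CTL and p31-43 array.

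SLC25A29 rose by 0.80 with PT (SE 0.15, limma, adjusted p = 0.0214) and by 0.73 with PT-G (SE 0.15, limma, adjusted p = 0.0346). With p31-43 the difference was 0.12 (interval −0.20 to 0.44). It was the 1 member of 31 that differed between PT-G and p31-43, beside 3.73% of the probes, by 0.60 (SE 0.15, limma, adjusted p = 0.0785). It was also the 1 member that differed between PT and p31-43, beside 3.15% of the probes, by 0.68 (SE 0.15, limma, adjusted p = 0.0529). PT-G minus PT was −0.08 (interval −0.40 to 0.24). The arrays of the digest with gliadin and those of the digest without it overlapped.

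The differences of SLC25A29 within runs were 0.63, 0.67, 1.34 and 0.58 with PT and 0.58, 0.49, 1.25 and 0.58 with PT-G. Run 3, where the MED-CTL array was low, gave the highest value of each. Without that array, MED-CTL replicate 3, the differences were 0.61 with PT (limma, adjusted p = 0.00634) and 0.53 with PT-G (limma, adjusted p = 0.00937). A second probe gave 0.75 with PT (limma, adjusted p = 0.510) and 0.27 with PT-G (limma, adjusted p = 1.00) and did not pass. With the mean of both probes in place of the brightest, PT-G gave 0.50 and no longer passed (limma, adjusted p = 0.538).

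SLC25A12, the aspartate/glutamate carrier of the malate-aspartate shuttle in excitable tissues, was 9.88, 10.07, 9.33 and 9.26 on the MED-CTL arrays. With PT it was 8.94, 9.09, 9.02 and 9.29, with PT-G 9.55, 9.22, 8.91 and 9.07, and with p31-43 10.21, 9.93, 9.15 and 9.51. It differed from MED-CTL by −0.55 with PT (SE 0.23, limma, adjusted p = 0.465) and by −0.45 with PT-G (SE 0.23, limma, adjusted p = 0.708). Neither passed, and the PT and MED-CTL arrays overlapped. A second probe gave −0.46 and −0.37. The PT difference passed when limma also fitted the run (adjusted p = 0.0773).

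SLC25A13, the related carrier of liver and other tissues, differed by −0.03 with PT and 0.04 with PT-G on its brightest probe, and by 0.81 and 0.46 on its other probe, which did not pass (limma, adjusted p = 0.748 and adjusted p = 1.00). SLC25A22, a glutamate carrier, differed by −0.14, −0.05 and −0.15 with PT, PT-G and p31-43 (SE 0.08 each). SLC25A20, which exchanges carnitine and acylcarnitine for fatty acid oxidation, differed by 0.05, 0.13 and 0.05 (SE 0.12 each). SLC25A2, an ornithine carrier, was between 6.06 and 6.24 on 15 arrays and 8.16 on PT replicate 4, the 1 array where it was above background.

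No di- or tricarboxylate carrier passed in the comparisons with MED-CTL. SLC25A1, which exports citrate for lipid synthesis, had means of 12.56 under MED-CTL, 12.90 under p31-43, 12.86 under PT and 12.55 under PT-G (SD 0.59, 0.13, 0.12 and 0.47, n = 4 each). SLC25A10 (dicarboxylates), SLC25A11 (oxoglutarate and malate) and SLC25A21 (oxodicarboxylates) lay, with SLC25A1, between 0.07 and 0.31 with PT, between 0.10 and 0.34 with p31-43 and between −0.19 and 0.11 with PT-G. The direct difference of PT-G from PT was −0.31 for SLC25A1 (SE 0.26) and −0.32 for SLC25A11 (SE 0.23), and neither passed.

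The 6 carriers of other nucleotides, cofactors and vitamins also held no call. SLC25A32, which takes folate into mitochondria, differed by 0.22 with PT, 0.29 with PT-G and −0.18 with p31-43 (SE 0.25 each). SLC25A17, a cofactor carrier that sits in peroxisomes, differed by 0.18, 0.23 and 0.04 (SE 0.12 each). SLC25A26, which carries S-adenosylmethionine, had probes of opposite sign with PT, at 0.13 and −0.10.

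SLC25A28 and SLC25A37 encode the mitoferrins, which bring iron into mitochondria for haem and iron-sulphur clusters. SLC25A28 was 13.11, 13.26, 12.69 and 13.05 on the MED-CTL arrays, and 12.71, 12.73, 12.56 and 12.71 with PT. With PT-G it was 12.77, 12.73, 12.49 and 12.86, and with p31-43 12.91, 12.99, 12.82 and 13.04. MED-CTL replicate 3 lay within the PT and PT-G ranges, and the other control arrays lay above both.

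SLC25A28 fell by 0.35 with PT (SE 0.11, limma, adjusted p = 0.24). The difference with PT-G was −0.31 (SE 0.11, limma, adjusted p = 0.35). The PT difference was below 0 in all 19 alternatives, from −0.46 to −0.20, but lost its call in 12 of them. Leaving out any PT array or MED-CTL replicate 1, 2 or 4 was enough, at −0.37 to −0.27. So were the background-subtracted signal, median scaling, the filter on dim probes, a fit of 2 groups and the mean over its probes. With the run as a block both passed, with PT at an adjusted p of 0.0152 and PT-G at 0.027 in limma. PT-G also passed with no block without MED-CTL replicate 3 (−0.43) or PT-G replicate 4 (−0.36). The other probe gave −0.04 with PT and −0.14 with PT-G. SLC25A37, the mitoferrin of red cell precursors, differed by −0.25 with PT on its brightest probe (SE 0.30), and 1 of its 3 other probes gave −0.69 and passed (limma, adjusted p = 0.204).

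**Figure D4:**
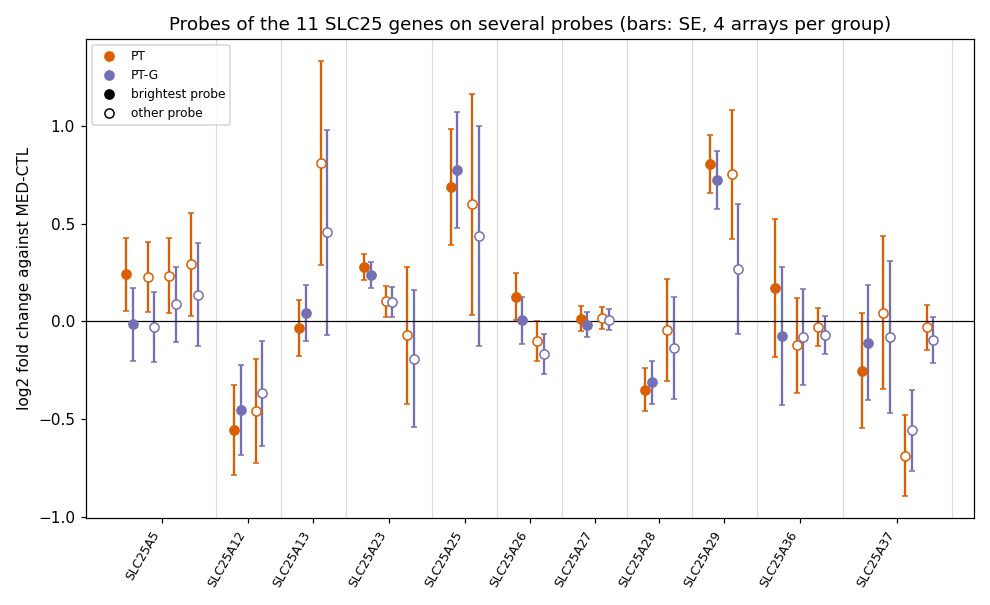
Log2 fold change against MED-CTL with PT and PT-G for each probe of the 11 SLC25 genes on several probes. Filled points are the brightest probe of a gene, open points its other probes, and bars are SE over 4 arrays per group. The 4 probes of SLC25A5 lie at 0.23 to 0.29 with PT, and those of SLC25A37 spread from −0.69 to 0.05.

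SLC25A14 and SLC25A35, an uncoupling protein and a carrier of less settled substrate, were above background on every array and did not pass. SLC25A14 differed by −0.02, −0.14 and −0.14 with PT, PT-G and p31-43 (SE 0.12 each). SLC25A35 differed by 0.23, 0.02 and 0.27 (SE 0.12 each), with an adjusted p of 1.00 in limma for p31-43.

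No member differed between PT-G and PT at a nominal p under 0.01 or under 0.05 in limma, beside 0.0903% and 0.781% of the probes. The PT-G minus PT values ran from −0.48, for SLC25A2, to 0.19, with a median of −0.07. With the run as a block the count was also 0, beside 0.317% of the probes. For genes called with a digest, the intervals were −0.40 to 0.24 for SLC25A29, −0.18 to 0.10 for SLC25A23 and −0.20 to 0.28 for SLC25A28. For SLC25A6, called with PT, the difference was −0.33, with the wider interval given above.

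With the run as a block, 6 members passed with PT (beside 10.3% of the probes) and 4 with PT-G (beside 9.16%). The 4 with PT-G were SLC25A23, SLC25A25, SLC25A28 and SLC25A29, and PT had SLC25A6 and SLC25A12 as well. The PT calls with this block include run 3, which did not pair the PT and MED-CTL arrays. With the replicate number as a block, which pairs PT-G with MED-CTL less closely than the run, 4 members passed with PT-G, beside 7.59% of the probes. Against p31-43 and with the run as a block, 4 members passed with PT-G (SLC25A25, SLC25A28, SLC25A29 and SLC25A32, beside 9.63% of the probes) and 4 with PT (SLC25A12, SLC25A25, SLC25A28 and SLC25A29, beside 8.42%). For p31-43 against MED-CTL the count stayed at 1, beside 1.38% of the probes with the run as a block. That member was SLC25A6, whose change was known when the family was chosen.

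Further members of the family have other names on this array and were found through their RefSeq accession, 18 in all. Of these, 2 passed with PT-G, beside 3.44% of the probes. With PT 0 passed in limma, beside 3.64%, and 3 had a nominal p under 0.05, beside 8.98%. With p31-43 0 passed, beside 0.388%, and 1 had a nominal p under 0.05, beside 2.15%. UCP3, an uncoupling protein of muscle, rose by 0.56 with PT-G (SE 0.15, limma, adjusted p = 0.131) and was 0.33 higher with PT. SLC25A33, a pyrimidine nucleotide carrier listed as BMSC-MCP, rose by 0.32 with PT-G (SE 0.10, limma, adjusted p = 0.205) and was 0.24 higher with PT. With p31-43 these 2 genes differed by −0.09 and −0.03.

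The 4 lists of genes that work with the carriers held 0 or 1 call each in a comparison, where 3.64% of all probes passed with PT, 3.44% with PT-G and 0.388% with p31-43. Of 12 genes that import carriers into the inner membrane, TOMM20, a receptor of the outer membrane, rose with PT and with PT-G (0.34 each, SE 0.09, limma, adjusted p = 0.121 and adjusted p = 0.124). Of 13 partners of nucleotide exchange, CKMT2, the muscle form of mitochondrial creatine kinase, fell by 1.10 with PT (SE 0.34, limma, adjusted p = 0.222), and 0 passed with PT-G. Of 14 other transporters of the inner membrane, SFXN2, a sideroflexin, fell by 0.31 with PT-G (SE 0.10, limma, adjusted p = 0.223). Of 11 regulators of mitochondrial biogenesis, GABPA, an ETS factor, fell by 0.48 with PT (SE 0.14, limma, adjusted p = 0.205). No gene of the lists passed with p31-43, and none of these had an adjusted p under 0.05 in limma, where the lowest was 0.121. The list medians lay between −0.08 and 0.10 in all 3 comparisons with MED-CTL. Of the 9 epithelial markers, 1 passed with PT-G and with PT, the keratin KRT20. It rose by 0.63 with PT-G (limma, adjusted p = 0.0251) and by 0.50 with PT (limma, adjusted p = 0.0884). The 9 had medians of −0.06 with PT-G and −0.10 with PT, and 4 and 3 of them were above 0. Their lowest values were −0.72 and −0.64. The part of KRT20 in these results was not tested.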

How the data were processed

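RNA of 16 Caco-2 cultures was hybridised to single-colour Agilent arrays. Per the file headers and the labels, the authors' image analysis (Agilent Feature Extraction 9.5.3.1) gave each spot's intensity without normalization between arrays, and the deposited log2 table matched quantile-normalized median foreground within 5e-09. Here 43376 non-control spots were quantile-normalized on their log2 median foreground, with no background correction. Outlier spots were dropped and each probe's spots averaged, and 40982 probes, those with 3 or more arrays left in each group, were tested in 1 limma 3.58.1 model (R 4.3.3) of the 4 conditions, with 12 residual and 1.88 prior degrees of freedom, Benjamini-Hochberg adjustment in each of 6 comparisons, and the study's nominal threshold of 0.01. Simulated data for PT against MED-CTL (40705 probes) used independent noise with the same SD in both groups. There, 56 of 100 changes of 0.5 and 88 of 100 changes of 1 were recovered, and 1.03% of unchanged probes passed. With such noise, the last rate is set by the threshold of 0.01. Deviations shared within a run and unequal spread between groups were not simulated, so these rates do not give the error or power of the real comparisons.

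The number of arrays limits the precision. Deviations from group means correlated between arrays of the same replicate number from 0.395 to 0.858 for PT-G with MED-CTL. The range was 0.263 to 0.708 for p31-43, so numbers pair these in part, but −0.018 to 0.410 for PT. Between arrays of the same run it was 0.625 to 0.858 for PT-G, 0.536 to 0.708 for p31-43 and −0.018 to 0.618 for PT. The lowest PT value was that of run 3, where the PT and MED-CTL arrays were on different slides. In run 4 the p31-43 and MED-CTL arrays were on different slides too, and gave the highest p31-43 value, 0.708. Runs were taken from the day given with the array data, and runs 1 and 2 form the early pair. Replicate numbers and run numbers match except that MED-CTL replicate 2 was in run 1 and MED-CTL replicate 1 in run 2. Members and lists were chosen with earlier results of these data known. Named were the ADP/ATP carriers, members with a nominal p under 0.01, the brightest member of each functional group, and up to 4 list genes with such a p. SLC25A2, SLC25A10 to SLC25A13, SLC25A17, SLC25A20, SLC25A21, SLC25A24 to SLC25A26, SLC25A35, SLC25A37, KRT20 and the genes under other names were added after their values were seen. RefSeq symbols matched 27 of 31 members, with none changed. Alternatives were the background-subtracted signal scaled to the 75th percentile, normexp (offset 50), median scaling, the deposited table, a filter on dim probes, the mean over a gene's probes, blocks for replicate number, run, slide and early or late runs, a fit of 2 groups, and each array left out. The test of late against early runs was added after seeing the data. The values of 1 member, which enters the counts, are not reported here. The authors' probe filter and re-annotation were not used here.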

Additional observations from a re-analysis of the deposited data

Results flagged for a closer look

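Of 52 groups of 4 arrays compared over 13 named genes, 1 held an array far from the others, where chance gives about 1 in 20. It was SLC25A28, a mitoferrin, on PT replicate 3, at a log2 intensity of 12.56 with the nearest PT array at 12.71, a gap of 0.881 of the group's range. MED-CTL replicate 3 and PT-G replicate 3 were also the lowest arrays of their groups for this gene, at 12.69 and 12.49. Without PT replicate 3 the PT difference from MED-CTL was −0.31 and no longer passed (limma, adjusted p = 0.502).

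The mean PT difference of SLC25A12, the aspartate/glutamate carrier, was further below 0 in the early than in the late pair of runs. It averaged −0.97 in runs 1 and 2 and −0.14 in runs 3 and 4, and the late minus early difference was 0.82 (SE 0.24, limma, adjusted p = 0.821). It was the 1 member of 31 with a nominal p under 0.01 for that difference in limma, beside 1.02% of the 40982 probes, and failed the adjustment.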

How the results depend on the processing

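Of 6 counts of called members, that of PT-G against PT was 0 in every alternative run. With the background-subtracted signal the counts were 1 for PT-G, 2 for PT and 0 for p31-43 against MED-CTL. The filter on dim probes left 1 and 2 for PT-G and PT, and the mean over a gene's probes left 0 and 2, and 0 for PT-G against p31-43. With 2 groups in the fit, p31-43 had 0, and PT against p31-43 had 2, as it had with median scaling. With the replicate block, PT-G against MED-CTL had 4, and PT-G and PT against p31-43 had 4 each. PT against MED-CTL had 6, where the numbers share too little to pair the arrays. The run as a block gave 4, 4 and 4 for those 3 comparisons, the slide as a block 4, 4 and 5 with 7 for PT against MED-CTL, and the early and late runs as a block 4, 2 and 3. No other count moved by over 1.5 times under a block. With 1 array left out, PT-G had 1 (without MED-CTL replicate 2) to 4 (without MED-CTL replicate 3 or PT-G replicate 3) and PT 3 to 5. The p31-43 count ran from 0 (without MED-CTL replicate 2 or 3 or p31-43 replicate 2 or 4) to 2 (without MED-CTL replicate 4). PT-G and PT against p31-43 had 1 to 2 each, with 2 without p31-43 replicate 2 or 3 or, for PT-G, PT-G replicate 3. The cause of these shifts was not tested.

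Under median scaling the median log2 fold change of all probes was −0.109 with PT, −0.0819 with p31-43 and −0.0417 with PT-G. With the quantiles method these medians were −0.01, −0.0011 and −0.0059. Of 39 values of named members, 7 had passed, and no sign turned among them. Signs turned only in values that had not passed. With median scaling SLC25A1, SLC25A3, SLC25A22 and SLC25A5 with PT-G became 0.088, 0.00021, 0.038 and 0.042, SLC25A14 and SLC25A4 with PT 0.012 and 0.0077, and SLC25A25 and SLC25A28 with p31-43 0.084 and 0.021. With the background-subtracted signal SLC25A5 with PT-G became 0.017, and SLC25A14 and SLC25A3 with PT 0.010 and −0.013. SLC25A3 with PT was −0.0084 in the deposited table and −0.039 with the slide as a block, which gave 0.029 and 0.045 for SLC25A3 and SLC25A25 with p31-43. The mean over probes gave 0.045 for SLC25A5 with PT-G, and 0.16 and 0.069 for SLC25A25 and SLC25A28 with p31-43. With 1 array left out, the values for PT-G ran from −0.28 to 0.21 for SLC25A1, −0.15 to 0.046 for SLC25A3, −0.27 to 0.032 for SLC25A4, −0.17 to 0.16 for SLC25A5 and −0.12 to 0.0049 for SLC25A22. For PT they ran from −0.11 to 0.059 for SLC25A14, −0.056 to 0.071 for SLC25A3, −0.20 to 0.060 for SLC25A4 and −0.044 to 0.43 for SLC25A32. For p31-43 they ran from −0.11 to 0.24 for SLC25A12, −0.093 to 0.035 for SLC25A3, −0.022 to 0.26 for SLC25A4, −0.00073 to 0.26 for SLC25A5, −0.31 to 0.17 for SLC25A25, −0.073 to 0.21 for SLC25A29 and −0.45 to 0.027 for SLC25A32. Signal over background limits SLC25A27, SLC25A31, SLC25A2 and SLC25A18.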
